A study of Mus musculus with 25 samples.

Results

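The genes Il22, Areg, Calca, Vegfa, Il13, Il5 and Il17a encode mediators of tissue repair and of type 2 and type 3 immunity, and their transcripts are described here across group 1 innate lymphoid cells (G1-ILCs) of mice, with attention to ILC1s of the gut. These 7 genes are the rows, among 46078 genes of a table of read counts, whose Ensembl identifiers map to those symbols. They were selected on measured values, the levels seen in gut ILC1s in earlier results of the same libraries. Comparisons of their levels between gut and other groups are therefore given as a description without a test. The members were tested only between groups outside the gut. Il22 and Areg were at their highest level in gut ILC1s, and in salivary gland cells Il22 had no read and Areg was 55.0 times lower. Calca and Vegfa were high in gut and salivary gland alike, with overlapping samples, and Il13, Il5 and Il17a did not exceed 3 reads in any library, so the name of repair mediators of gut ILC1s fitted only some of the 7 genes.

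RNA was sequenced from sorted cells of wild type C57BL/6 mice in 25 libraries of 8 groups, and the labels give no transgene and no treatment for any group. Adults were 8 weeks old and fetuses were at E18.5, late in gestation. The study's methods state that a nanobody that blocks ARTC2.2 was injected before sacrifice in several experiments, and not whether these libraries were among them. Small intestinal lamina propria ILC1s (LPL ILC1s, 4 libraries) were sorted, as were all groups, as CD3- cells with the NK receptors NK1.1 and NKp46, and were also CD27+ and IL-7R+, with no gate on the integrins CD49a and CD49b. Salivary gland G1-ILCs (SG G1-ILCs, 2 libraries) carried both integrins. Adult liver ILC1s were CD49a+ and CD49b low and were split by IL-7R into AL 7R+ ILC1s (3 libraries) and AL 7R- ILC1s (4 libraries), and immature ILC1s of bone marrow (BM iILC1s, 3 libraries) had the same integrin gate. BM NK cells (3 libraries) and AL NK cells (2 libraries) were CD49a- and CD49b+, and fetal liver G1-ILCs (FL G1-ILCs, 4 libraries) were intermediate for both integrins per the labels, while the study's text calls them CD49a+. The study calls the libraries of a group biological replicates, FL G1-ILCs included. The labels do not say whether they came from separate mice, so p-values measure the spread between these samples, which may be technical. Each library held 2302643 to 7995906 counted reads (median 4603579). FL G1-ILC replicates 2 and 3 differed by little more than counting noise (chi-square per degree of freedom 1.18, against 3.50 to 12.4 in the other 28 pairs of replicates) and were summed into 1 sample, which left 24 samples. Levels are given as CPM, read counts scaled to library size after TMM normalization, and those of 1 group are given as mean ± SD over its samples.

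Interleukin 22 and amphiregulin, the product of Areg, act on barrier epithelium: the former through a receptor that immune cells largely lack, inducing antimicrobial proteins and epithelial renewal, the latter as a ligand of the epidermal growth factor receptor. Vegfa encodes a growth factor of blood vessels, and Calca encodes both calcitonin and the neuropeptide CGRP, which a count per gene cannot separate. Interleukin 13 and interleukin 5 are the signature cytokines of ILC2s, and interleukin 17A, with interleukin 22, is one of the signature cytokines of ILC3s.

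All 7 genes are protein-coding and lie on the autosomes of GRCm38, where the positions are those of GENCODE vM21. Il22 (ENSMUSG00000074695) spans chr10:118204942-118210047 on the plus strand. A near-identical copy, Iltifb, lies on the minus strand at chr10:118289629-118295038, and 41% of the 50-base windows of Il22 transcripts and 7.7% of their 150-base windows also occur in transcripts of that copy. Areg (ENSMUSG00000029378) spans chr5:91139599-91148432 on the plus strand, Calca (ENSMUSG00000030669) chr7:114631478-114636357 on the minus strand and Vegfa (ENSMUSG00000023951) chr17:46016993-46032369 on the minus strand. Il13 (ENSMUSG00000020383) and Il5 (ENSMUSG00000036117) lie on 1 chromosome, at chr11:53631324-53634702 and chr11:53720794-53725106, and Il17a (ENSMUSG00000025929) is at chr1:20730905-20734496. Of the 7 genes, Il5 alone overlaps another annotated gene, the antisense gene Gm12214, which had 0 reads.

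The 250 bases before the RefSeq start of transcription (GRCm38.p6) are shown for the 4 genes that were detected, so that the promoters of the pair that was highest in gut (Il22, Areg) and of the pair high in gut and salivary gland (Calca, Vegfa) can be read side by side, 5′ to 3′ on the strand of the gene. Capitals mark matches to 5 motifs searched on both strands, namely the cAMP response element TGACGTCA, the AP-1 element TGANTCA, the ROR half-site AGGTCA, the hypoxia response core ACGTG and the STAT element TTCNNNGAA. The stretches are chr10:118204714-118204963 (plus strand, where the RefSeq start lies inside the first bases of the GENCODE gene), chr5:91139349-91139598 (plus strand), chr7:114636358-114636607 (minus strand) and chr17:46032378-46032627 (minus strand, the first of 2 RefSeq starts).
Il22: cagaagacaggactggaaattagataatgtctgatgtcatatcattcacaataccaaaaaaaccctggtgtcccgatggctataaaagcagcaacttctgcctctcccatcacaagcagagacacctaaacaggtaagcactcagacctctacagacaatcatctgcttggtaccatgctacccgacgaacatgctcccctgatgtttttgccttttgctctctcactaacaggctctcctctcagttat
Areg: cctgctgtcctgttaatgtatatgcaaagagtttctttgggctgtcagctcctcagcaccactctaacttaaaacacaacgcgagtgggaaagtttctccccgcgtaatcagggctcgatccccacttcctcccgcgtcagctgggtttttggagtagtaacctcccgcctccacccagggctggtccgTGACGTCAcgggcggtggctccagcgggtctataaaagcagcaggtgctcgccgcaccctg
Calca: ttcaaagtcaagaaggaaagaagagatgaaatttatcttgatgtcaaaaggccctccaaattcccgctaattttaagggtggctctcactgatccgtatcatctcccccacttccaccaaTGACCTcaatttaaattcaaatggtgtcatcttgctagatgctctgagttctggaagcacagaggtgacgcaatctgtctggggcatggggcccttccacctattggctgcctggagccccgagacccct
Vegfa: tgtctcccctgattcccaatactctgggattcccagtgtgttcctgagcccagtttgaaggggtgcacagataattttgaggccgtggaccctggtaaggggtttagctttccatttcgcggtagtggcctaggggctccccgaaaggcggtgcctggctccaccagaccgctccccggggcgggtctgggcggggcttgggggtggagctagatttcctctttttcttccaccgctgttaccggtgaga
The Areg promoter held 1 cAMP response element, TGACGTCA, which begins 61 bases before the start and which 1.55% of 32851 promoters of the same length hold. The Calca promoter held 1 ROR half-site, on the opposite strand and 130 bases before the start, a match found in 14% of promoters. Il22 and Vegfa held none of the 5 motifs in this window. The AP-1 element, the hypoxia core and the STAT element, which 6.75%, 16.6% and 7.02% of promoters hold, had no match in these 4 stretches. A match is a description of letters only.

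Il22 reads came almost wholly from gut. The level in the 4 LPL ILC1 samples was 156, 192, 22.9 and 53.2 CPM in replicates 1 to 4, from 535, 669, 90 and 192 reads, which is 106 ± 80.8 CPM (n = 4). Replicates 1 and 2 were high and replicates 3 and 4 low, and the highest sample was 8.39 times the lowest. Outside the gut Il22 had 4 reads in all, 1 in AL 7R+ ILC1s, 1 in BM iILC1s and 2 in BM NK cells, and no read in SG G1-ILCs, AL 7R- ILC1s, FL G1-ILCs or AL NK cells. Of its 1490 reads in all samples, 99.7% came from gut. No gut sample overlapped a sample of another group.

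Against groups with no Il22 read, a bound was set from 3 reads over the group, the level that a count of 0 allows. The LPL ILC1 level was then at least 257-fold higher than in SG G1-ILCs, where 0 reads allow up to 0.400 CPM, and at least 714-fold higher than in AL 7R- ILC1s, where they allow up to 0.144 CPM. Against AL 7R+ ILC1s, with 1 read, the ratio was 1856 with a 95% counting interval of 333 to 73353. These intervals and limits cover counting error only. In RNA of whole sorted populations, fewer cells with a transcript and less of it per cell cannot be told apart. The copy Iltifb had 12 reads in LPL ILC1s (0.863 ± 0.754 CPM, n = 4), and adding them to Il22 left the gut mean at 107 CPM.

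Areg had the same group at the top and a trace in the salivary gland. It stood at 194, 220, 389 and 288 CPM in LPL ILC1 replicates 1 to 4 (273 ± 87.0, n = 4). The 2 SG G1-ILC samples had 3.10 and 6.82 CPM, from 11 and 27 reads, and the gut mean was 55.0 times the gland mean. In the other 6 groups Areg had 20 reads in all, with group means between 0 CPM in BM iILC1s and 0.719 ± 1.02 CPM (n = 2) in AL NK cells, where all 6 reads came from 1 sample. The gut samples lay above both gland samples and these lay above each of the others, whereas the remaining neighbours in the order of levels overlapped. The gut samples that were low for Il22, replicates 3 and 4, were the high ones for Areg.

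Calca was high in gut and in the salivary gland. Its level was 166, 244, 144 and 178 CPM in LPL ILC1 replicates 1 to 4 (183 ± 43.0, n = 4) and 139 and 197 CPM in SG G1-ILCs (168 ± 41.2, n = 2). These ranges overlap, with a ratio of means of 1.09. In the other 6 groups 25 reads were found in all, and the highest of them was AL 7R- ILC1s at 0.639 ± 0.596 CPM (n = 4), where 9 of 14 reads came from replicate 2. Gut held 67.0% of all Calca reads and the gland 32.4%.

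Vegfa was the member with the most reads, and its highest mean was in the salivary gland. SG G1-ILCs had 587 and 694 CPM (640.5 ± 75.8, n = 2), and LPL ILC1 replicates 1 to 4 had 488, 426, 591 and 482 CPM (497 ± 68.8, n = 4), so that the gut mean was 0.776 of the gland mean and the highest gut sample lay just above the lowest gland sample. Next in order came AL NK cells at 12.1 ± 1.22 CPM (n = 2), BM NK cells at 4.48 ± 1.67 (n = 3) and BM iILC1s at 1.71 ± 0.220 (n = 3), each with all samples below those of the group before it. FL G1-ILCs (1.08 ± 0.821, n = 3), AL 7R- ILC1s (0.522 ± 0.473, n = 4) and AL 7R+ ILC1s (0.296 ± 0.143, n = 3) followed, and from BM iILC1s downwards neighbouring groups overlapped. The sample of FL G1-ILCs that was summed from 2 libraries held 14 of their 20 reads.

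**Figure D1:**
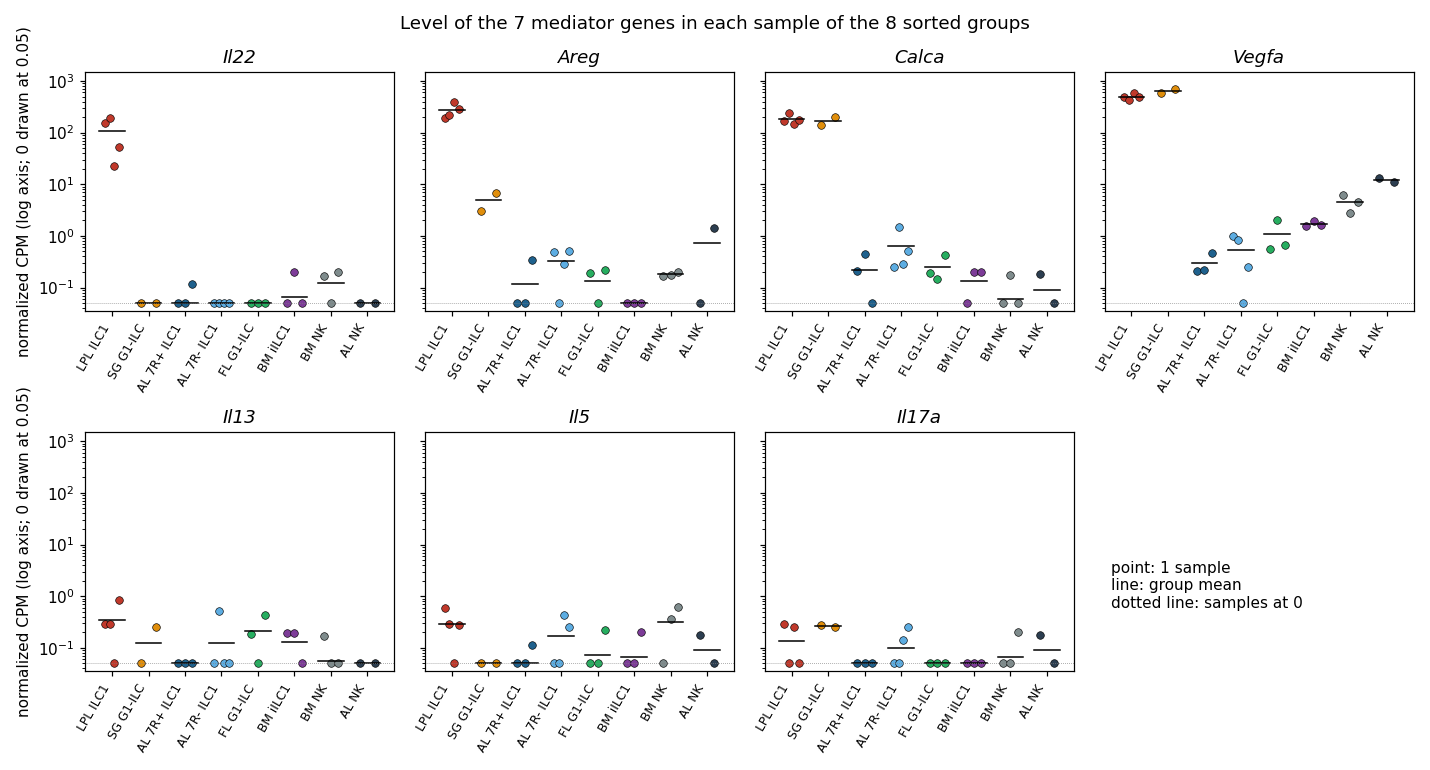
Normalized CPM of each mediator gene (log axis, samples with no read drawn at 0.05 CPM) in each sample of the 8 sorted groups, with a point per sample and a line at the group mean. The 4 gut samples of Il22 (22.9 to 192 CPM) and of Areg (194 to 389 CPM) stand above all other groups, Calca and Vegfa are high in gut and salivary gland alike, and Il13, Il5 and Il17a stay under 1 CPM.

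The signature cytokines of ILC2s, and Il17a, were near the limit of detection in all groups. Il13 had 5 reads in LPL ILC1s, namely 1, 1, 0 and 3 in replicates 1 to 4 (0.352 ± 0.347 CPM, n = 4), and 10 reads in the other groups together. Il5 had 2, 1, 0 and 1 reads in gut (0.287 ± 0.238 CPM, n = 4) against 5 in BM NK cells (0.320 ± 0.305 CPM, n = 3). Il17a had 1, 0, 1 and 0 reads in gut (0.136 ± 0.158 CPM, n = 4), and 1 read in each SG G1-ILC sample. For each of these 3 genes the ranges of neighbouring groups overlapped throughout the order of levels. A difference between groups was not detectable at this depth, where 3 reads over the 4 gut samples are 0.207 CPM.

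Levels can be set against each other between genes only per length of transcript, here in CPM per kilobase of exon. In LPL ILC1s Areg was highest at 224 ± 71.6 CPM per kilobase (n = 4), ahead of Vegfa at 116 ± 16.1, Calca at 109 ± 25.5 and Il22 at 95.5 ± 72.8. Among 14069 genes that passed the filter on low counts and have an exon length, Areg ranked at 282, Vegfa at 594, Calca at 651 and Il22 at 757. In SG G1-ILCs Vegfa was at 149 ± 17.7 (n = 2) and Calca at 99.7 ± 24.5 CPM per kilobase. Il13, Il5 and Il17a were at 0.292, 0.187 and 0.117 CPM per kilobase in LPL ILC1s.

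The 4 gut samples did not agree equally on the 4 genes. The coefficient of variation over them was 76.2% for Il22, 31.9% for Areg, 23.5% for Calca and 13.8% for Vegfa, where counting error alone would give 5.19%, 3.16%, 3.90% and 2.35%. Among the 3913 genes with 50 to 500 CPM in gut, the median was 12.9%, and 99.9% of them varied less than Il22. Il23r, a receptor that drives Il22 in ILC3s, was at 24.8, 32.4, 9.66 and 15.5 CPM in replicates 1 to 4. It was higher in the 2 samples with more Il22 than in the 2 with less, and lowest in replicate 3. The T cell gene Cd3e went the other way, at 8.16, 12.0, 21.9 and 25.5 CPM, as did Ifng, the hallmark cytokine of ILC1s, at 299, 442, 655 and 560 CPM. Over whole lists, the 7 ILC3 markers summed to 78.2, 51.1, 16.5 and 33.0 CPM in replicates 1 to 4, and the 14 T cell markers to 1479, 1429, 1495 and 1645 CPM, with Trbc1 the highest. The part of ILC3s or T cells in the spread of Il22 was not tested, and 4 samples are too few for a correlation.

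**Figure D2:**
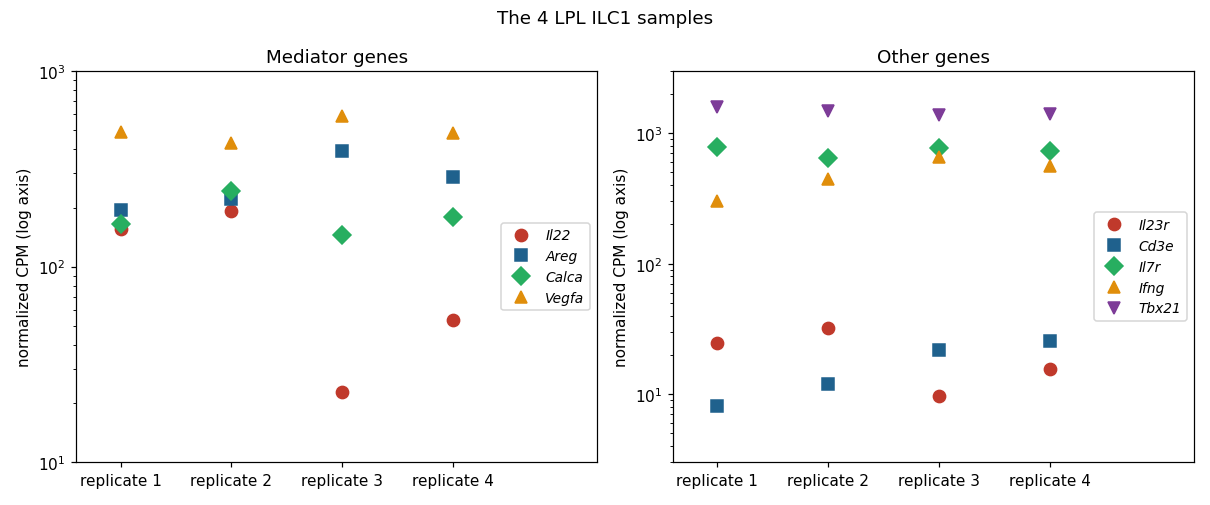
Normalized CPM (log axis) of the 4 detected mediators and of 5 other genes in LPL ILC1 replicates 1 to 4, with a point per sample. Il22 was at 22.9 CPM in replicate 3, where Il23r was at 9.66 CPM and Areg at its highest value of 389 CPM, while Tbx21 lay between 1387 and 1595 CPM.

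The gate of the gut cells was read back from the genes behind it and from lineage genes. LPL ILC1s had 912 ± 64.8 CPM (n = 4) of Klrb1c (NK1.1), 624 ± 31.1 of Ncr1 (NKp46), 735 ± 63.0 of Il7r, 56.0 ± 10.2 of Cd27 and 16.9 ± 8.13 of Cd3e. The Klrb1c mean was the lowest of the 8 groups, with FL G1-ILCs next at 980 CPM. Ncr1 was at 1951 CPM in AL 7R+ ILC1s, and at 507 and 604 CPM in SG G1-ILCs and FL G1-ILCs. Cd27 was lowest in gut among the adult groups, with AL NK cells next at 88.7 CPM, and was at 33.6 CPM in FL G1-ILCs. Il7r was at 541 CPM in AL 7R+ ILC1s and 1117 CPM in BM iILC1s. Tbx21, the transcription factor T-bet of G1-ILCs, was at 1466 ± 93.6 CPM, with every sample above those of the other groups. Gata3 was at 438 ± 37.7 and Eomes at 51.3 ± 40.3. The integrin genes Itga1 and Itga2 were at 101 ± 19.2 and 6.22 ± 3.22 CPM. Eomes was 111 CPM in replicate 4 and 23.1 to 37.0 CPM in the others. The 7 markers of ILC3s summed to between 16.5 and 78.2 CPM in the gut samples, all 7 with reads, and to between 0.868 and 30.5 CPM elsewhere. Within that list Il23r was highest at 20.6 CPM (n = 4), and Ccr6 and Il17f were at 0.495 ± 0.473 and 0.929 ± 0.948.

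Markers of other cells differed between gut and salivary gland. The 11 markers of ILC2s summed to 49.6 to 63.8 CPM in LPL ILC1s, with Bmp7 the highest, and to 101 to 121 CPM in BM iILC1s. The 8 neural and enteroendocrine markers, from cells known to express Calca, summed to 1.72 to 10.5 CPM in gut and to 1.13 to 3.03 CPM in the gland, with Snap25 the highest in gut at 1.41 CPM, and all 8 were read in gut and 7 in the gland. The 7 markers of mast cells, another cell type with Vegfa and Areg, summed to 3.73 to 6.93 CPM in gut, with Cpa3 the highest at 3.92 CPM, and to at most 1.26 CPM in the gland. The 13 myeloid markers summed to 171 to 242 CPM in gut, of which Itgax gave 185 CPM, and to 1689 and 1765 CPM in the 2 gland samples, where C1qb was at 186 ± 36.7 CPM (n = 2) and 0.215 ± 0.278 CPM (n = 4) in gut. The 19 epithelial markers summed to 69.6 to 130.5 CPM in gut and to 867 and 985 CPM in the gland, where Cdh1 gave 852 CPM. The 9 B and plasma cell markers summed to 512 to 607 CPM in gut, of which Ighm gave 535 CPM, and to 1164 and 1172 CPM in the gland, and the 8 stromal and endothelial markers to 171 to 229 CPM in gut, of which Pecam1 gave 188 CPM, and to 124 and 143 CPM in the gland. The 14 T cell markers summed to 1429 to 1645 CPM in gut, 1416 to 1460 CPM in AL 7R+ ILC1s and 668 and 767 CPM in the gland. In BM iILC1s they summed to 1451 to 1846 CPM, a range that overlaps that of gut, with Trbc1 the highest. The sum was higher than in gut in AL 7R- ILC1s (3117 to 3749 CPM) and in FL G1-ILCs (2415 to 2726 CPM). There the highest marker was Cd3g, which the study counts among ILC1 signature genes. Of the 14 markers, Cd3e was at 16.9 CPM in gut, 0.176 CPM in AL 7R+ ILC1s and 2.53 CPM in the gland, and Trac at 99.4, 13.9 and 15.6 CPM. The means of Cd3e and Trac in BM iILC1s were 147 and 158 CPM, and Cd3e was at 17.3 CPM in AL 7R- ILC1s. The part of T cells in the gut levels of Il22 and Areg was not tested. The part of myeloid and epithelial RNA in the Calca and Vegfa levels of SG G1-ILCs was not tested.

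Beside the groups, the isolation differed: per the study's methods salivary gland was digested with collagenase at body temperature and gut was held at that temperature with EDTA and then digested with collagenase, whereas liver was dissociated mechanically and bone marrow flushed. The 35 genes of early response and dissociation, such as Fos, Jun and heat shock genes, summed to between 48036 and 55111 CPM in LPL ILC1s and to 34973 and 37983 CPM in SG G1-ILCs, against 2704 to 4137 CPM in the samples of the other 6 groups. Tissue and digestion cannot be told apart as sources of the levels that these 2 groups share.

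**Figure D3:**
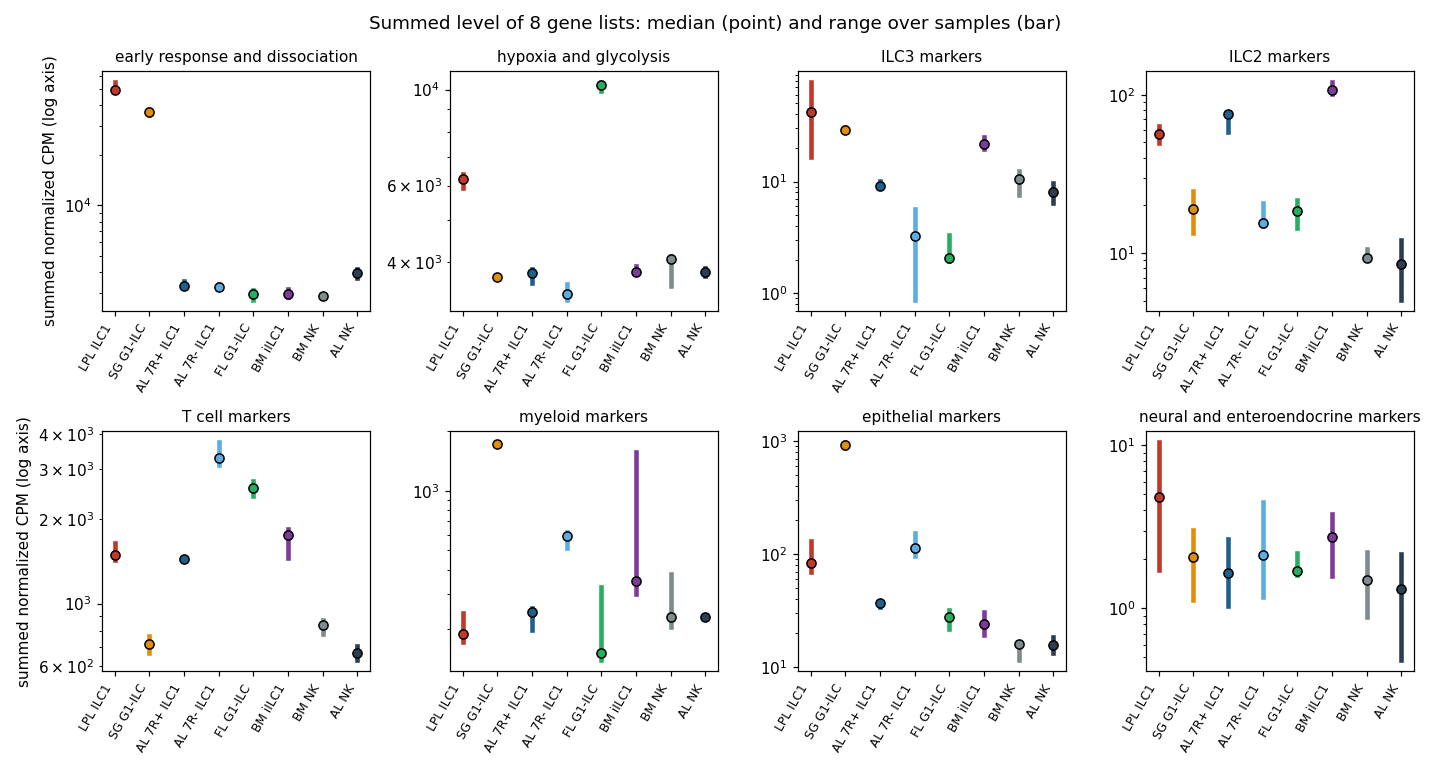
Summed normalized CPM (log axis) of 8 gene lists in the 8 groups, with a point at the median and a bar over the range of the samples. The early response list is at 34973 to 55111 CPM in gut and salivary gland and at 2704 to 4137 CPM elsewhere, and the myeloid and epithelial lists are highest in the salivary gland, with 1 BM iILC1 sample next at a myeloid sum of 1571 CPM.

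Genes whose pattern over the 8 groups lay nearest to each mediator were found by the root mean square difference between centred group means in log2 CPM, over genes with an average log2 CPM of at least 1. For Il22 these were Acod1 (0.51 on the log2 scale), Rbpms2 (0.54), Tnfsf11 (0.56) and Dkk3 (0.61). Acod1, which encodes the enzyme that makes itaconate, was at 262 CPM in gut and 0.141 CPM in the gland, and Tnfsf11, which encodes the cytokine RANKL, was at 63.6 CPM in gut and 0.282 CPM in the gland. For Areg they were Ramp3 (0.51), Dusp4 (0.74), Dtx4 (0.79) and Smim3 (0.93), and Ramp3, a subunit of receptors of the calcitonin family, was at 183 CPM in gut and 1.76 CPM in the gland. For Calca they were Fosb (0.64), Atf3 (0.76), Cxcl2 (0.76) and Pmepa1 (0.91), and for Vegfa Fos (0.83), Nr4a2 (0.99), Fosb (1.07) and Atf3 (1.19). Fosb, Atf3, Fos and Nr4a2 belong to the early response list. Fosb was at 284 CPM in gut, 358 CPM in the gland and at most 1.44 CPM elsewhere.

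**Figure D4:**
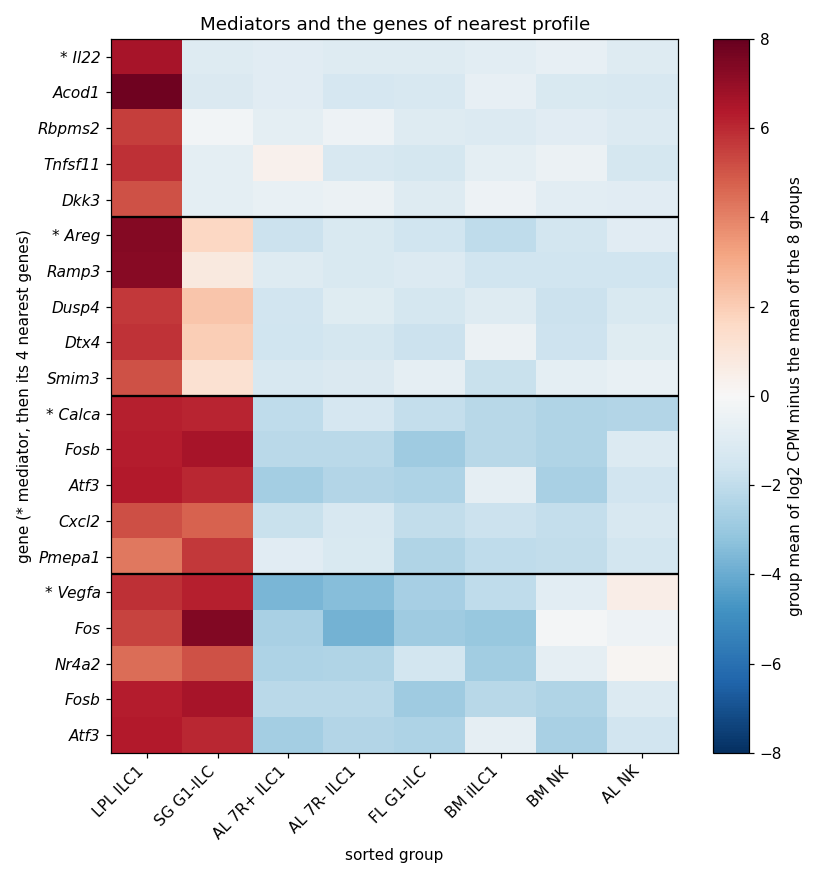
Group means of log2 CPM minus the mean of the 8 groups (colour scale) for each detected mediator, marked with an asterisk, and its 4 nearest genes, with groups as columns. Il22, Areg and their nearest genes are high in LPL ILC1s, while Calca, Vegfa and theirs are high in both LPL ILC1s and SG G1-ILCs.

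Outside the gut the members were tested with edgeR's quasi-likelihood test over all 14123 genes that passed the filter, with Benjamini-Hochberg adjustment and a threshold of 0.05. Of the 7 genes, 4 passed the filter (Il22, Areg, Calca and Vegfa), through their gut or gland samples, and 3 did not, so counts over these 4 are given for completeness and not as support. SG G1-ILCs and AL 7R+ ILC1s are also set against gut here and may have entered the choice of the members. Tests with either group are therefore descriptive. SG G1-ILCs against AL 7R- ILC1s, a comparison in which 32.4% of all genes were called, called 3 of the 4. Vegfa was higher by 10.30 on the log2 scale (standard error 0.29, adjusted p = 7.14e-20), Calca by 7.92 (standard error 0.36, adjusted p = 1.01e-15) and Areg by 4.01 (standard error 0.71, adjusted p = 8.23e-05), with both gland samples above all 4 liver samples for each. Il22 had no read in either group. The 13 myeloid markers summed to 1689 and 1765 CPM in the gland samples and to 512 to 617 CPM in AL 7R- ILC1s, and the 19 epithelial markers to 867 and 985 CPM against 96.9 to 155 CPM. Cdh1 alone gave most of the epithelial sum in the gland, at 852 CPM against 37.1 CPM in AL 7R- ILC1s. Epcam, the highest epithelial marker in AL 7R- ILC1s, went the other way, at 24.3 CPM in the gland against 53.8 CPM.

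Vegfa was lower in ILC1s than in the NK cells of the same tissue. In AL 7R- ILC1s against AL NK cells, where 20.4% of genes were called, it was called alone of the 4 and fell by 4.59 on the log2 scale (standard error 0.42, adjusted p = 3.10e-09), from 11.3 and 12.99 CPM in the NK cell samples to at most 0.994 CPM in the 4 ILC1 samples. In BM iILC1s against BM NK cells, with 12.1% of genes called, it was again the 1 member called and fell by 1.39 on the log2 scale (standard error 0.39, adjusted p = 0.0186), from 2.83 to 6.17 CPM in BM NK cells to 1.57 to 1.96 CPM in BM iILC1s. The call did not hold when BM iILC1 replicate 1 or 3 was left out (adjusted p = 0.0684 and 0.0644), nor without BM NK replicate 1 (adjusted p = 0.16), nor when only these groups were fitted (adjusted p = 0.0841). The mast cell marker Cma1 moved with Vegfa, at 240 CPM in AL NK cells and 0.160 CPM in AL 7R- ILC1s, and at 49.8 CPM in BM NK cells and 0.590 CPM in BM iILC1s. It gave nearly all of the sum of the 7 mast cell markers, which was 242 and 247 CPM in AL NK cells and 1.74 to 4.27 CPM in AL 7R- ILC1s, and 49.4 to 57.8 CPM in BM NK cells and 0.982 to 4.79 CPM in BM iILC1s. Of the others, Cpa3 was at 3.78 and 2.84 CPM in the liver groups and at 3.07 and 2.05 CPM in the marrow groups, and the remaining 5 had at most 5 reads in any of these 4 groups. The part of mast cell RNA, and of 1 BM iILC1 sample with a myeloid sum of 1571 CPM, in the Vegfa difference was not tested. Whether the difference was larger in liver than in bone marrow was not tested.

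Among the ILC1s outside gut and gland, differences of the members were small or rested on few reads. BM iILC1s against AL 7R+ ILC1s called Vegfa alone, where 8.06% of genes were called, at 1.71 ± 0.220 CPM (n = 3) from 26 reads against 0.296 ± 0.143 CPM (n = 3) from 6 reads. This is 2.29 higher on the log2 scale (standard error 0.67, adjusted p = 0.0301), a call that was lost when any 1 of the 6 libraries was left out (adjusted p = 0.0589 to 0.097). Vegfa passed the filter there through groups where it is high, and in a fit of only these groups it did not pass and had no test. AL 7R+ ILC1s may have entered the choice of the members, as the group set against gut, so these p-values are descriptive. FL G1-ILCs against AL 7R- ILC1s (42.6% of genes called) and AL 7R+ ILC1s against AL 7R- ILC1s (5.28% called) called 0 of the 4 members by edgeR and 0 by DESeq2. At an unadjusted p under 0.05, edgeR had 0 and 1 members there, and DESeq2 had 1 and 1. Vegfa was higher by 1.25 on the log2 scale (standard error 0.63, adjusted p = 0.114) in the former, with samples overlapping. Il22 had at most 2 reads in any group outside the gut, so that no fold is given for it.

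Other genes of the same programmes were read in gut by lists, which were written with earlier results known and so describe these samples only. In LPL ILC1s against AL 7R+ ILC1s, 24.8% of the 14123 genes were higher and 26.2% lower, and against SG G1-ILCs 16.8% were higher and 18.7% lower (edgeR), with a median difference over all genes of -0.02 and -0.03 on the log2 scale. The type 3 programme held 25 genes, of which 22 were tested. Against AL 7R+ ILC1s, 10 were higher, 3 lower and 9 not called, with a median of 0.93, and against SG G1-ILCs 17 were higher and 2 lower, with a median of 2.64. Csf2, which encodes the cytokine GM-CSF, was at 522 ± 88.2 CPM (n = 4) in gut, at 12.1 ± 3.70 CPM (n = 3) in liver 7R+ cells and at 17.6 ± 2.68 CPM (n = 2) in the gland, a rise of 5.38 (standard error 0.27, adjusted p = 3.98e-15) and 4.89 (standard error 0.32, adjusted p = 2.46e-12) on the log2 scale. Rora, a nuclear receptor of ILC2s and ILC3s, rose by 3.79 and 4.89 to 1743 ± 209 CPM (n = 4), and Gpr183, an oxysterol receptor, by 2.52 against liver.

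Il23r, with 292 reads in gut, 2 in AL 7R+ ILC1s and 3 in SG G1-ILCs, was higher in gut than in either (adjusted p = 2.05e-07 and 4.91e-05 by edgeR). The genes of the type 3 list that were lower than in AL 7R+ ILC1s were Ltb4r1, a leukotriene receptor, at 4.87 ± 1.92 against 27.5 ± 4.65 CPM, and Tox and Il12rb1, by 0.95 and 0.37 on the log2 scale. Of the 14 T cell markers 11 were tested, and 7 were higher and 2 lower in gut than in AL 7R+ ILC1s (median 2.34 on the log2 scale) and likewise than in SG G1-ILCs (median 2.67).

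Of 24 genes of the type 2 programme 18 were tested, 9 higher and 3 lower against AL 7R+ ILC1s (median 1.57 on the log2 scale) and 9 higher and 3 lower against SG G1-ILCs (median 1.66). Besides Rora, Il4ra, the shared receptor chain of interleukins 4 and 13, rose against liver by 2.92 on the log2 scale to 1795 ± 136 CPM (n = 4). Icos and Il2ra rose by 4.48 and 4.34 against the gland. Bcl11b and Ramp1 fell by 1.41 and 1.10 on the log2 scale against liver. Il13 and Il5 themselves stayed at 5 and 4 reads in these samples.

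Other repair and growth factors numbered 49, of which 28 were tested. Against AL 7R+ ILC1s 12 were higher, 8 lower and 8 not called, with a median of 0.69, and against SG G1-ILCs 9 were higher, 5 lower and 14 not called, with a median of 0.67 on the log2 scale. Furin, a protease that activates growth factor precursors, stood at 463 ± 115 CPM (n = 4), up by 3.51 against liver and 3.05 against the gland. The list also holds Ifng, the hallmark cytokine of ILC1s, so its counts are not of repair factors only. Ifng was at 489 ± 153 CPM, up by 2.86 against liver. Pdgfb, a growth factor of mesenchymal cells, fell to 5.84 ± 2.26 CPM, by 2.68 against liver and 2.59 against the gland. Mmp9, a matrix metalloproteinase, lay between these tissues, at 75.0 ± 11.5 CPM in gut, 443 ± 60.4 CPM (n = 3) in AL 7R+ ILC1s and 1 read in SG G1-ILCs. Il2 fell by 2.00 against liver, and Tgfb1 and Rhbdf2 fell by 2.20 and 1.18 against the gland.

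**Figure D5:**
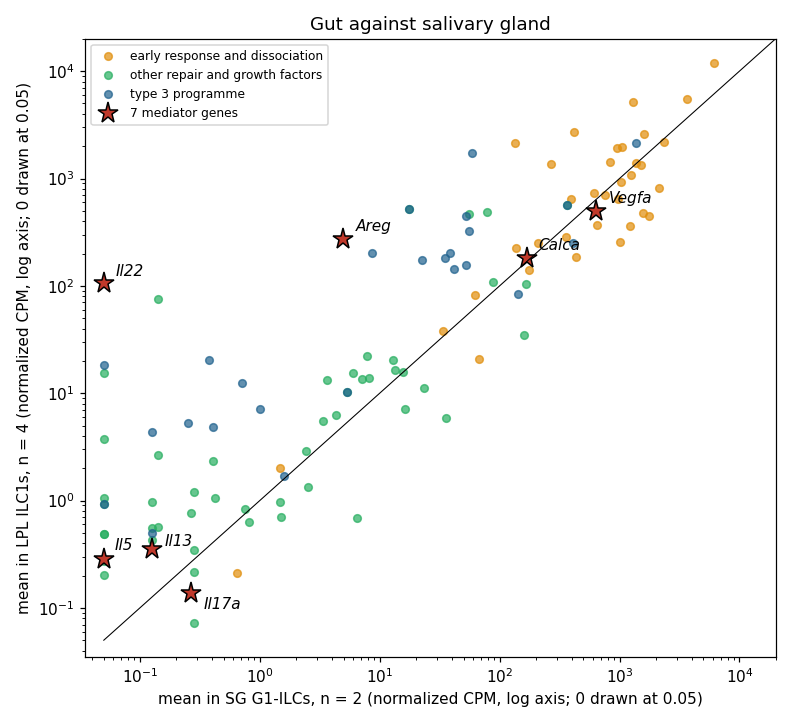
Mean normalized CPM in LPL ILC1s (n = 4) against SG G1-ILCs (n = 2), both on log axes with 0 drawn at 0.05 CPM, for the 7 mediators (stars) and genes of 3 lists, with a line of equal level. Calca and Vegfa lie beside the line among early response genes, and Il22 (106 CPM in gut, 0 reads in the gland) and Areg (273 and 4.96 CPM) lie far above it.

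Of 23 genes of receptors of the mediators 14 were tested, and against AL 7R+ ILC1s 3 were higher, 3 lower and 8 not called (median 1.41 on the log2 scale), with the same counts against SG G1-ILCs (median 0.13), near the shares of all genes (24.8% and 26.2% against liver, 16.8% and 18.7% against the gland). Ramp3 was at 183 ± 14.5 CPM (n = 4) in gut and 0.245 ± 0.329 (n = 3) in AL 7R+ ILC1s, a rise of 9.53 (standard error 0.44, adjusted p = 8.72e-14), while Ramp1, the subunit that makes the receptor of CGRP, fell by 1.10 to 11.8 ± 5.92 CPM. Calcrl, the receptor chain that both subunits join, was at 39.9 ± 13.9 CPM in gut, higher than in the gland by 2.08 (standard error 0.37, adjusted p = 6.46e-05) and not called against liver (0.65, standard error 0.28, adjusted p = 0.0532). Il10rb and Il17ra fell by 0.84 and 0.49 on the log2 scale against liver, to 86.6 ± 5.85 and 136 ± 16.4 CPM.

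Genes of early response were the list that moved most against liver, with 31 of 35 higher, 0 lower and 4 not called (median 3.98 on the log2 scale), whereas against SG G1-ILCs 12 were higher, 8 lower and 15 not called (median 0.03). Atf3, Fosb and Klf4, transcription factors of the early response, were higher than in AL 7R+ ILC1s, at 249, 284 and 81.4 CPM in gut against 2, 7 and 2 reads in all 3 liver samples. Between the digested tissues Myc, Nfkbia and Pde4b were higher in gut by 4.01, 2.68 and 2.34, and Fos, Dusp2 and Hspa1a fell by 1.99, 1.97 and 1.76. Of 27 genes of hypoxia and glycolysis, a programme that Vegfa is known to belong to, 15 were higher and 7 lower against liver (median 0.41) and 13 were higher and 7 lower against the gland (median 0.34). Hk2, Hilpda and Epas1, the last encoding the hypoxia factor HIF-2α, were at 354 ± 35.3, 1019 ± 109 and 131 ± 24.9 CPM (n = 4) in gut and at 19.99 ± 6.74, 99.2 ± 28.4 and 0.520 ± 0.337 CPM (n = 2) in the gland. The sum of the 27 genes was highest in FL G1-ILCs, at 9947 to 10428 CPM, where Vegfa was at 1.08 CPM. It was 5911 to 6375.5 CPM in gut, 3647 and 3719 CPM in the gland and 3579 to 3859 CPM in AL 7R+ ILC1s. The part of this programme in the level of Vegfa was not tested. Of the same 27 genes, Ddit4, Pfkfb3 and Pdk1 fell by 2.05, 1.52 and 1.41 against liver.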

How the data were processed

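RNA was sequenced from sorted G1-ILCs and NK cells. Per the study's methods and labels, cDNA was made with a SMART-seq HT kit from sorted cells, whose number per library differs between methods and labels. The deposited table holds whole-number counts of reads per gene, which the authors made, per the submitters' processing notes, with fastp 0.23.0, HISAT2 2.1.0 (mm10) and featureCounts of Subread 1.6.5. The settings for strand and for reads that match several places are not given in the sources used here, which bears on Il22 and its copy Iltifb. Identifiers were matched to GENCODE vM21, and the 935 genes without a name hold 0.104% of counts.

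Counts were scaled by TMM, filtered with filterByExpr (minimum count 10) and fitted in 1 model of 8 groups with edgeR 4.0.16 (R 4.3.3), quasi-likelihood test, Benjamini-Hochberg adjustment over 14123 genes, threshold 0.05. The members and all 18 lists were chosen with earlier results of these data known. Comparisons involving LPL ILC1s were tested for other genes but not for the members. Genes named from a list were, per direction, up to 3 called genes of largest change whose groups did not overlap and whose average log2 CPM was at least 3, the highest gene of each marker list and 11 genes that check the labels. The lowest ILC3 markers named, Jun, the mast cell genes other than Cpa3 and the values of a named gene in a further comparison were chosen after values were seen, and some genes of the rule are not reported here. Bounds used 3 reads over a group, intervals were exact 95% intervals of counts, and promoter letters came from RefSeq (7 of 7 members matched). The procedure was tested on simulated data. Alternatives were DESeq2 1.42.0, RLE size factors, no filter or a stricter filter (minimum count 30), a replicate block, only the 2 groups compared, all 25 libraries, the 24 samples thinned to 3752189 reads each, plain CPM, and each library left out.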

Additional observations from a re-analysis of the deposited data

Results flagged for a closer look

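Levels of the members and of the genes that check the labels were examined for a sample far from the rest in the groups of 4 samples (LPL ILC1s and AL 7R- ILC1s), wherever the mean was at least 1 CPM. In 25 such checks, 2 samples stood apart, and chance alone gives about 1 in 20. Eomes in LPL ILC1s ran from 23.1 to 111 CPM with a median of 35.4, and the gap below its highest sample, replicate 4, took 0.842 of the whole range. Il7r in AL 7R- ILC1s ran from 0.579 to 4.27 CPM with a median of 1.00, and the gap below the highest sample took 0.883 of the range. None of the 4 detected mediators was set apart in this way in gut.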

How the results depend on the processing

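Over 336 recomputed values of 29 results, 313 kept their direction and their side of the threshold, or stayed within 1 SD for a level or 1.5 times for a count. The number of members called fell from 1 to 0 in a fit of only the 2 groups for BM iILC1s against BM NK cells and for BM iILC1s against AL 7R+ ILC1s. In the second of these fits Vegfa did not pass the filter and had no test. With each library left out in turn the number ran from 0 to 1 in both. Areg in AL 7R- ILC1s against AL NK cells, not called, went from -1.05 to 3.65 on the log2 scale without AL NK replicate 2, which held all 6 reads of that group, and to -2.22 without AL NK replicate 1. The mean of Vegfa in LPL ILC1s was 388 CPM without TMM scaling, against 497 CPM, and the other levels in gut moved by less than 1 SD. Leaving out gut samples 1 at a time gave means of Il22 from 77.4 to 134 CPM. Replicate numbers did not pair the samples: after group means were taken off, the mean correlation across groups was -0.00619 for 69 same-numbered pairs and 0.00236 for 181 others. With the number as a replicate block, the counts of members called were 3, 1, 1, 0, 0 and 1 as without it, and the genes called in gut were 6885 against liver and 4727 against the gland, in place of 7204 and 5013.

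Depth limits Il13, Il5 and Il17a, and every statement on Il22, Areg and Calca outside gut and gland, since these rest on 0 to 14 reads a group. SG G1-ILCs and AL NK cells have 2 samples each. Gut and salivary gland differ from the other groups in tissue and digestion together.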
